A study of Homo sapiens with 282 samples.

Results

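The expression of 9 genes of the response to oxidative stress was followed across a panel of drug treatments in OCI-Ly3, an established cell line derived from a human diffuse large B cell lymphoma. They are SLC7A11, HMOX1, TXNRD1, SRXN1, GCLM, GCLC, NQO1, AKR1C3 and OSGIN1, 9 of the 18239 genes that the arrays measured by a probe set assigned to a single gene. The genes were taken by their symbols, and where a gene had several probe sets, the one with the highest mean across the series was taken. Cells in 96-well plates, in medium with 10% fetal calf serum, were treated for 6, 12 or 24 h with 1 of 14 compounds, with 1% DMSO, the solvent of the compounds, or with medium alone (Media in the labels). RNA from each well was hybridised to HT HG-U219 array plates, 94 arrays per time and 282 in all, in 87 groups. At each time DMSO had 8 arrays and medium 2. Every compound had 3 arrays at each concentration, except Methotrexate, which had 6 at 100 uM.

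The 14 compounds were given at these concentrations. Inhibitors of topoisomerases and DNA-damaging agents were Aclacinomycin A at 0.036 and 0.105 uM, Camptothecin at 0.01 and 0.31 uM, Doxorubicin hydrochloride at 0.03 and 0.101 uM, Etoposide at 0.811 and 0.812 uM, and Mitomycin C at 0.553 and 2.56 uM. Agents acting on the cytoskeleton or the mitotic spindle were Blebbistatin at 10 and 100 uM, Monastrol at 50 and 100 uM, and Vincristine at 0.005 and 0.01 uM. The others were the translation inhibitor Cycloheximide at 0.264 and 5 uM, the HSP90 inhibitor Geldanamycin at 0.001 and 0.032 uM, the protein kinase inhibitor H-7, Dihydrochloride (H-7 from here on) at 12.4 and 20.2 uM, the antifolate Methotrexate at 100 uM, the mTOR inhibitor Rapamycin at 13.8 and 22 uM, and the histone deacetylase inhibitor Trichostatin A at 0.114 and 0.143 uM. All groups come from a single cell line, and the labels do not say that replicates were separate cultures, so p-values measure only the spread between these arrays, which may be technical.

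Levels are log2 intensities from RMA, so a difference of 1 is a 2-fold change. A difference is the mean of a treated group minus the mean of the 8 DMSO arrays of the same time, with its standard error (SE) from limma. It was called where the adjusted p, over all 18239 genes, was under 0.05, and only called differences are described as rises or falls. In these bulk samples less RNA per cell and fewer cells cannot be told apart, and levels of different genes are not set against each other; where a gene is said to be dim, its level is set against the array medians. Calls were also checked without each replicate number, left out of all treated groups at once, and without each DMSO array, 11 fits per time. For most calls described below that such a fit ended, the adjusted p without that replicate or array is given.

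Most of these genes are known targets of NRF2 (gene NFE2L2), a transcription factor that KEAP1 holds in check by passing it to the CUL3 ubiquitin ligase. Oxidants and electrophiles release NRF2, which pairs with a small MAF protein and binds antioxidant response elements, while BACH1 and BACH2 compete for the same elements. The products form a chain. SLC7A11 with its partner SLC3A2 imports cystine, GCLC and GCLM are the catalytic and modifier subunits of the enzyme that starts glutathione synthesis, TXNRD1 and SRXN1 keep thioredoxin and peroxiredoxins reduced, NQO1 and AKR1C3 reduce quinones and carbonyls, HMOX1 breaks down heme, and OSGIN1 is an oxidative stress-induced growth regulator. Several of them also answer to other factors: SLC7A11 to ATF4, the factor of the amino acid and unfolded protein responses, and HMOX1 to heat shock and heme through BACH1.

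Promoter sequences from RefSeq (GRCh38.p14), each with 250 bases before the start site and 50 after it, matched 7 of the 9 genes in 9 windows; SLC7A11 and HMOX1 had no entry. The core letters of the antioxidant response element, TGACNNNGC on either strand, are in 3 of the 9 windows, those of TXNRD1 and GCLM, and in 13.3% of all 34796 windows of the same length. The stretches around 3 of these matches are shown, with the match in capitals, because only TXNRD1 and GCLM had a match among the genes with windows. The first TXNRD1 stretch is chr12:104215654-104215713 on the plus strand and the second, before another start site of the gene, is chr12:104286904-104286963. The GCLM stretch is chr1:93909431-93909490 on the minus strand. The second TXNRD1 match and the GCLM match read as the core on the opposite strand.
TXNRD1, first start site: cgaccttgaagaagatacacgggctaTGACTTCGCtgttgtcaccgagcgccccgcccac
TXNRD1, second start site: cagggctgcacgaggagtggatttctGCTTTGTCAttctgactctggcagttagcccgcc
GCLM: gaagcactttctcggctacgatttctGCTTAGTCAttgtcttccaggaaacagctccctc
Counted from the start site as 0, the matches lie at -99 to -91, -102 to -94 and -34 to -26. The first TXNRD1 window holds a further match at -8 to 0. The core of the amino acid response element read by ATF4, TGATGNAA on either strand, is in 0 of the 9 windows and in 3.63% of all windows. Such matches describe letters only, and no binding was measured.

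The arrays of 6 h had upper quartiles of 8.15 to 8.35 on the log2 scale, with a median of 8.28. Those of H-7 20.2 uM, at 8.18, 8.15 and 8.18, were near the lower end. At 12 h the upper quartile went down to 6.91 and at 24 h to 6.92. Arrays with an upper quartile under 8, or a 3' to 5' difference of ACTB over 2, are called low-signal here: 0 of 94 at 6 h, 31 at 12 h (4 of them DMSO) and 17 at 24 h (1 of them DMSO). Results of 6 h therefore come first, and those of 12 and 24 h are given with and without low-signal arrays. In DMSO at 6 h the activated B cell lymphoma markers IRF4, CCND2 and BATF had median levels of 13.2, 12.3 and 9.09, all above the lowest array median of 5.57. The germinal centre marker BCL6 (8.74) was also above it, and the germinal centre marker MME (4.17) was below it. Of 5 B cell markers, PAX5 (7.27) was above it, and MS4A1 (4.61), CD79A (5.02), CD79B (4.93) and CD22 (4.73) were below it. Of 11 T cell, myeloid, epithelial, fibroblast and erythroid markers, 8 were below it, CD3E (3.98), CD14 (3.73), LYZ (3.63) and EPCAM (3.80) among them. The T cell markers CD2 (6.40) and CD3D (5.74) and the erythroid marker HBB (6.34) were above it, and the part of such cells or of probe background in these levels was not tested.

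At 6 h, the 9 genes did not move as a block under any compound. Over 27 treated groups and 9 genes, 77 of 243 differences from DMSO were called: 29 rises (11.9%), beside 7.02% over all genes and groups, and 48 falls (19.8%), beside 6.68%. Without replicate 2 of the treated groups, 30 falls were called. The calls came from 16 treated groups, and 11 groups had none. In 60 of the 77 calls every treated array lay beyond all 8 DMSO arrays on the same side. Most calls were small: 48 were under 1.5-fold and 7 over 2-fold. Of the 77, 52 were kept in each of 11 fits that left out a replicate number or a DMSO array.

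**Figure D1:**
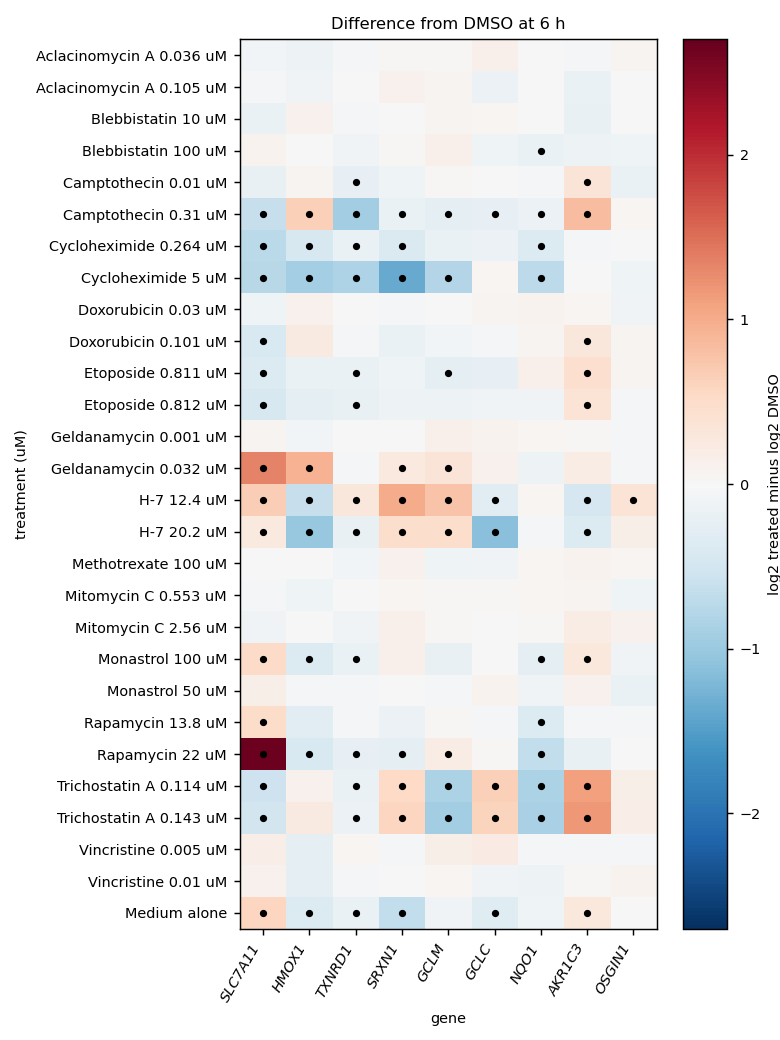
Difference from DMSO at 6 h (log2, colour) for the 9 genes (columns) in 27 treated groups and medium (rows); a dot marks adjusted p under 0.05 (limma, 8 DMSO arrays, 3 treated arrays, 6 for methotrexate, 2 for medium). No group has all 9 genes on 1 side with calls, and the strongest colours are SLC7A11 with rapamycin 22 uM (2.64), SRXN1 with cycloheximide 5 uM (-1.36) and SLC7A11 with geldanamycin 0.032 uM (1.34).

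By gene, SLC7A11 rose in 6 groups and fell in 8, SRXN1 rose in 5 and fell in 4, and GCLM rose in 4 and fell in 5. AKR1C3 rose in 8 and fell in 2. The other genes mostly fell where they were called: TXNRD1 rose in 1 and fell in 11, HMOX1 rose in 2 and fell in 6, GCLC rose in 2 and fell in 3, and NQO1 rose in 0 and fell in 9. OSGIN1, whose level in every DMSO array was below the lowest array median of 5.57, rose in 1 and fell in 0.

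The cystine transporter SLC7A11 (probe set 11721876_s_at, gene at chr4:138164097-138242349) had the largest rise of the 9 genes at 6 h. In the 8 DMSO arrays its level ran from 6.74 through a median of 6.97 to 7.18. With rapamycin 22 uM it was 9.64, 9.60 and 9.56, far above every DMSO array. The difference was 2.64 ± 0.11 (SE, n = 3), a 6.25-fold rise (adjusted p = 2.86e-35). With rapamycin 13.8 uM the arrays read 7.57, 7.55 and 7.24, all just above DMSO, a rise of 0.50 ± 0.11 (adjusted p = 0.000489). The higher of these concentrations thus gave 2.15 more than the lower (95% interval 1.88 to 2.42, adjusted p = 1.31e-23). Another SLC7A11 probe set gave 2.80 and another, dimmer probe set gave 0.64 for rapamycin 22 uM, all called.

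Geldanamycin 0.032 uM gave SLC7A11 levels of 8.19, 8.24 and 8.45, again with no overlap with DMSO. That is a rise of 1.34 ± 0.11, or 2.53-fold (adjusted p = 4.12e-17). Geldanamycin at 0.001 uM was 1.25 lower than at 0.032 uM (95% interval 0.98 to 1.52, adjusted p = 6.03e-12). H-7 12.4 uM gave 7.65, 7.59 and 7.63, above all DMSO arrays, a rise of 0.67 (adjusted p = 6.92e-07). At 20.2 uM H-7 gave 7.21, 6.96 and 7.50, which overlap DMSO, with a difference of 0.27 (adjusted p = 0.0415). That call was lost without replicate 3 (0.13, adjusted p = 0.431), replicate 1 (adjusted p = 0.0725), or DMSO replicate 1, 2, 6 or 8 (adjusted p = 0.0556, 0.0768, 0.0653 and 0.0786). Monastrol 100 uM, an inhibitor of the kinesin Eg5, gave 7.55, 7.49 and 7.35, a rise of 0.51 (adjusted p = 0.00114). Medium alone gave 7.51 and 7.55, close to the monastrol arrays and above all DMSO arrays.

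SLC7A11 fell with compounds of several classes. Cycloheximide 5 uM gave 6.26, 6.26 and 6.10, below every DMSO array, a fall (-0.75 ± 0.11, adjusted p = 3.15e-08). Cycloheximide 0.264 uM, at 6.22, 6.21 and 6.27, gave nearly the same difference of -0.72 (adjusted p = 1.12e-06). Camptothecin 0.31 uM gave 6.38, 6.27 and 6.37, also below all DMSO arrays, with a difference of -0.62 (adjusted p = 1.91e-06). The fall was -0.56 with trichostatin A 0.114 uM and -0.50 with 0.143 uM (adjusted p = 1.23e-05 and 9.46e-05). Doxorubicin 0.101 uM gave 6.57, 6.58 and 6.51 and a difference of -0.40 (adjusted p = 0.0133), with adjusted p = 0.0891 without replicate 2 and 0.0664 without replicate 3. The remaining falls, -0.38 and -0.44 with etoposide 0.811 and 0.812 uM (adjusted p = 0.0229 and 0.00664), were lost without replicate 2 (adjusted p = 0.238 and 0.0925), and the first also without replicate 1 (0.102) or DMSO replicate 4 (0.0519). The dim SLC7A11 probe set gave 0.0879 with camptothecin 0.31 uM and 0.0479 with trichostatin A 0.114 uM in place of a fall.

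**Figure D2:**
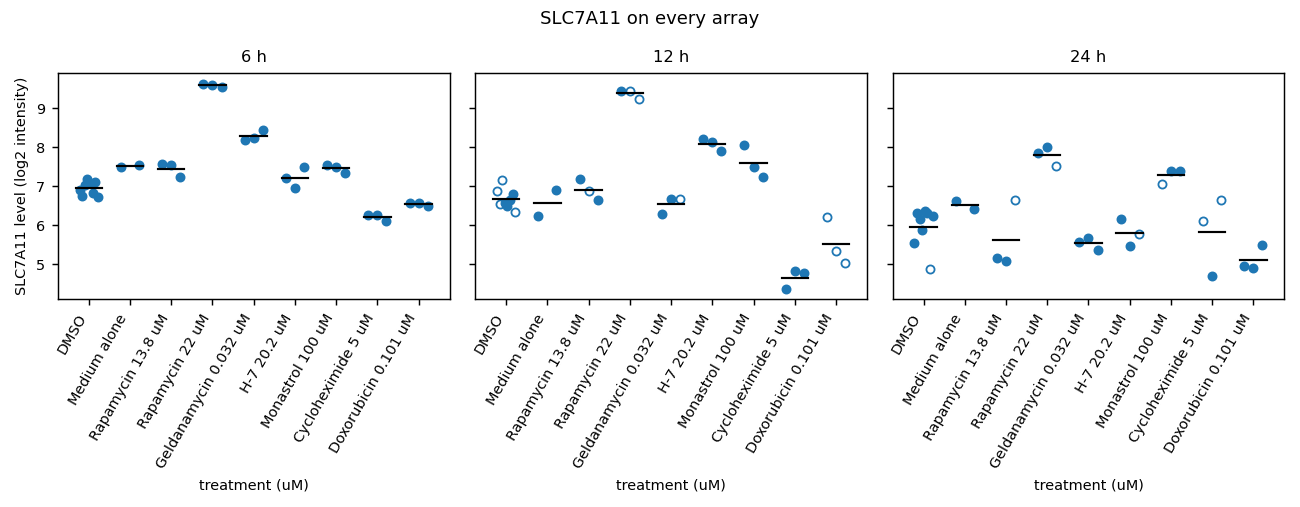
SLC7A11 level (log2 intensity, vertical axis) in each array of DMSO, medium and 7 treated groups (horizontal axis) at 6, 12 and 24 h; a point is an array, an open circle a low-signal array and a line the group mean. Rapamycin 22 uM lies above every DMSO array at all 3 times, while cycloheximide 5 uM lies below them at 6 and 12 h.

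In the wells in which SLC7A11 rose with rapamycin 22 uM, most listed ATF4 targets rose too. Whether ATF4 had a part in the SLC7A11 rise was not tested. Of 15 listed ATF4 targets, 14 rose and 0 fell, with a median difference of 1.37 against -0.01 over all genes, of which 13% rose and 13.6% fell. CTH, an enzyme that makes cysteine from cystathionine, rose by 2.23, and the stress regulators DDIT4, SESN2 and ATF3 rose by 1.45, 1.37 and 1.32. SESN2 and ATF3 had their highest differences with camptothecin 0.31 uM (2.05 and 2.56), where SLC7A11 differed by -0.62. SLC3A2, the partner chain of SLC7A11, rose by 1.39. SLC3A2 was named after its values were seen, for its role. Of the 9 oxidative stress genes in the same group, 2 rose and 4 fell: besides SLC7A11, GCLM differed by 0.20 (adjusted p = 0.0226, 0.0995 without replicate 1 and 0.157 without replicate 3), while NQO1, HMOX1, SRXN1 and TXNRD1 fell. The median over the 9 was -0.20.

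With geldanamycin 0.032 uM, 4 of the 9 genes rose and 0 fell, where 6.73% of all genes rose and 9.75% fell. These were SLC7A11, HMOX1, GCLM and SRXN1, and the median over the 9 was 0.21 against -0.00 over all genes. Of the 15 ATF4 targets, 7 rose and 0 fell, among them CTH by 0.69 and SESN2 by 0.47, with a median of 0.06. Of 13 heat shock and metal response genes, 8 rose and 0 fell with a median of 0.57. DNAJB1, a co-chaperone of HSP70, rose by 1.77 and HSPA1A, an inducible HSP70, by 1.33. In this list rapamycin 22 uM raised 9 and lowered 1, while H-7 raised 1 and lowered 7 at 12.4 uM and raised 2 and lowered 6 at 20.2 uM. The shares of all genes that rose and fell were 13% and 13.6% with rapamycin 22 uM, 15.5% and 18% with H-7 12.4 uM, and 23% and 27% with H-7 20.2 uM. Among regulators of NRF2, BACH1 rose by 0.41 and BACH2 by 0.18, while NFE2L2 differed by -0.02 and KEAP1 by -0.06 without a call. Of 22 other measured NRF2 targets, 1 rose and 4 fell.

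GCLM (probe set 11723490_at, chr1:93885199-93909430) and GCLC (11754931_a_at, chr6:53497341-53545101) encode the subunits of the same enzyme, yet they moved in opposite directions with the strongest compounds. In DMSO at 6 h GCLM ran from 9.33 through 9.37 to 9.59. Trichostatin A 0.143 uM gave 8.46, 8.41 and 8.53, below every DMSO array, a fall to 0.523 of the DMSO level (-0.94 ± 0.07, adjusted p = 1.11e-21). Trichostatin A 0.114 uM gave 8.53, 8.68 and 8.41 and a difference of -0.86 (adjusted p = 9.65e-20). A second GCLM probe set differed by -0.57 with trichostatin A 0.143 uM.

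GCLC in DMSO ran from 8.76 through 8.87 to 8.94. With trichostatin A 0.143 uM it was 9.51, 9.40 and 9.47, above every DMSO array, a rise of 0.60 ± 0.10 (adjusted p = 4.98e-08). With 0.114 uM it was 9.41, 9.51 and 9.61, a rise of 0.65 ± 0.10 (adjusted p = 5.49e-09). The catalytic subunit thus rose where the modifier subunit fell. All 4 GCLC probe sets rose with trichostatin A 0.143 uM.

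H-7 gave the mirror image. At 20.2 uM GCLC was 7.96, 7.43 and 7.79, below all DMSO arrays, a fall to 0.457 of the DMSO level (-1.13 ± 0.10, adjusted p = 1.8e-18). GCLM in the same wells was 9.85, 9.91 and 9.86, above all DMSO arrays, a rise of 0.47 ± 0.07 (adjusted p = 6.56e-09). At 12.4 uM GCLM was 10.30, 10.17 and 10.07, a rise of 0.78 ± 0.07 (adjusted p = 9.19e-17), the largest for this gene. GCLC at that concentration was 8.55, 8.53 and 8.63 and differed by -0.29 (adjusted p = 0.0127, and 0.0528 without replicate 2). All 4 GCLC probe sets fell with H-7 20.2 uM, by 0.50 to 1.13.

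**Figure D3:**
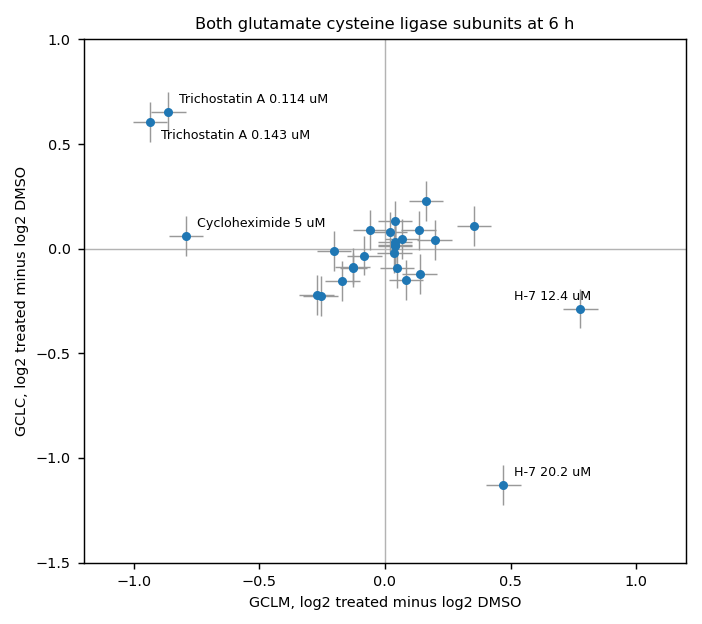
Difference from DMSO of GCLM (horizontal axis, log2) and GCLC (vertical axis, log2) at 6 h; each point is 1 of 27 treated groups and bars are standard errors. Trichostatin A lies at the upper left (GCLM -0.94, GCLC 0.60 at 0.143 uM) and H-7 at the lower right (GCLM 0.47, GCLC -1.13 at 20.2 uM).

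Other compounds moved mainly GCLM. Cycloheximide 5 uM gave GCLM levels of 8.67, 8.49 and 8.67, below every DMSO array, a fall (-0.79 ± 0.07, adjusted p = 2.52e-17). Geldanamycin 0.032 uM gave 9.85, 9.71 and 9.71, above them all, a rise of 0.35 (adjusted p = 4.13e-05). GCLM differed by -0.26 with camptothecin 0.31 uM (adjusted p = 0.00104) and by -0.27 with etoposide 0.811 uM, called except without replicate 1 (adjusted p = 0.0577) or 2 (0.0907). GCLC with camptothecin differed by -0.23 (adjusted p = 0.0426), a call lost without replicate 2 (0.206) or 3 (0.117) and without DMSO replicate 1, 5, 6, 7 or 8 (0.0502 to 0.0637). Over the 27 groups the differences of GCLM and GCLC had r = -0.58, and r = -0.59 over the 23 groups without H-7 and cycloheximide; the points share the 8 DMSO arrays.

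SRXN1 (11716950_s_at, chr20:646615-653200), sulfiredoxin, which repairs over-oxidised peroxiredoxins, had the deepest fall of the 9 genes. In DMSO it ran from 9.30 through 9.43 to 9.57. Cycloheximide 5 uM gave 8.26, 8.05 and 7.88, a fall to 0.389 of the DMSO level (-1.36 ± 0.07, adjusted p = 5.87e-31). Cycloheximide 0.264 uM gave 8.87, 9.04 and 9.20, lower by 0.39 than DMSO (adjusted p = 1.53e-05). All 6 arrays lay below all DMSO arrays, and the higher concentration was lower by a further difference of -0.97.

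H-7 12.4 uM raised SRXN1 to 10.50, 10.49 and 10.28, a rise of 1.00 ± 0.07 or 2.00-fold (adjusted p = 2.11e-22). H-7 20.2 uM gave 9.76, 10.02 and 9.95, a smaller rise of 0.48 (adjusted p = 2.47e-09). The 2 H-7 concentrations differed by -0.51, higher minus lower. Trichostatin A gave 10.02, 9.95 and 9.94 at 0.114 uM and 9.98, 9.97 and 10.04 at 0.143 uM, all above DMSO, with rises of 0.54 and 0.57 (adjusted p = 4.89e-11 and 8.09e-12). Geldanamycin 0.032 uM gave 9.76, 9.63 and 9.68, a rise of 0.26 (adjusted p = 0.00276). SRXN1 fell by 0.26 with rapamycin 22 uM (9.18, 9.14 and 9.19; adjusted p = 0.00208, and 0.0506 without replicate 2).

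TXNRD1 (11715649_s_at, chr12:104215779-104350307), the cytosolic thioredoxin reductase, fell most with camptothecin. DMSO ran from 10.97 through 11.15 to 11.22. Camptothecin 0.31 uM gave 10.23, 10.15 and 10.15, a fall to 0.519 of the DMSO level (-0.95 ± 0.05, adjusted p = 1.82e-30). Cycloheximide 5 uM gave 10.31, 10.28 and 10.27, a fall (-0.84 ± 0.05, adjusted p = 3.26e-26). Both groups lay below every DMSO array. H-7 12.4 uM was the only group with a called rise of TXNRD1, at 11.49, 11.42 and 11.39 and 0.31 ± 0.05 above DMSO (adjusted p = 1.97e-07). Its other 9 called falls were under 1.5-fold. Those lost without a replicate number were camptothecin 0.01 uM (adjusted p = 0.132 without replicate 2), cycloheximide 0.264 uM (0.518 and 0.187 without replicates 1 and 2), monastrol 100 uM (0.102, 0.0703 and 0.199 without replicates 1, 2 and 3), etoposide 0.811 uM (0.0503 and 0.249 without replicates 1 and 2) and etoposide 0.812 uM (0.06 and 0.109). The falls were less firm in the other TXNRD1 probe sets, which had 0 called rises and 3 called falls each, beside 1 and 11 here. Their lowest differences were -1.18 and -1.19, both with camptothecin 0.31 uM, and their highest 0.41 and 0.36, both with H-7 12.4 uM. The mean of all TXNRD1 probe sets gave 0.13 in place of a fall for H-7 20.2 uM and 0.02 for trichostatin A 0.143 uM.

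NQO1 (11717567_a_at, chr16:69709401-69726560), a quinone reductase often used as a readout of NRF2, fell in 9 groups and rose in 0. DMSO ran from 10.13 through 10.28 to 10.40. Trichostatin A 0.143 uM gave 9.45, 9.47 and 9.28, a fall (-0.87 ± 0.05, adjusted p = 1.82e-27), and 0.114 uM gave 9.42, 9.47 and 9.33, a fall (-0.86, adjusted p = 3.1e-27). Cycloheximide 5 uM gave 9.62, 9.56 and 9.51, a fall (-0.71, adjusted p = 1.7e-21). Rapamycin 22 uM gave 9.57, 9.62 and 9.64, a fall (-0.66, adjusted p = 1.74e-19). All of these arrays lay below every DMSO array, and with rapamycin NQO1 fell in the same wells in which SLC7A11 rose 6.25-fold. The remaining falls ran from -0.16 (camptothecin 0.31 uM) to -0.37 (cycloheximide 0.264 uM). The first was lost without replicate 2 (adjusted p = 0.0652), and that with blebbistatin 100 uM (-0.19) without any of the replicates 1, 2 and 3 (0.283, 0.11 and 0.113). The highest NQO1 difference of this probe set in any group was 0.13, with etoposide 0.811 uM, and it was not called. A second NQO1 probe set had 1 called rise and 8 called falls. Its highest difference was 0.26, with H-7 12.4 uM.

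HMOX1 (11716939_a_at, chr22:35381096-35394207), heme oxygenase, rose with geldanamycin and camptothecin. DMSO ran from 6.97 through 7.16 to 7.58. Geldanamycin 0.032 uM gave 7.97, 8.34 and 8.15, above every DMSO array, a rise of 0.93 ± 0.12, or 1.91-fold (adjusted p = 4.36e-10). The other HMOX1 probe sets gave 1.01 and 1.05. Camptothecin 0.31 uM gave 8.15, 7.52 and 7.92, so 1 array overlapped DMSO, with a rise of 0.64 ± 0.12 (adjusted p = 1.31e-06).

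HMOX1 fell most with H-7: 20.2 uM gave 5.85, 6.25 and 6.50, a fall to 0.493 of the DMSO level (-1.02 ± 0.12, adjusted p = 1.07e-12). H-7 12.4 uM gave 6.61, 6.58 and 6.63, a difference of -0.61 (adjusted p = 6.8e-06). Cycloheximide 5 uM gave 6.36, 6.32 and 6.24, a fall (-0.91, adjusted p = 1.45e-10). These 3 groups lay below all DMSO arrays, and with H-7 HMOX1 fell in the wells in which SRXN1 and GCLM rose. The falls were less firm in the other HMOX1 probe sets, which had 2 and 1 called falls beside 6 here. Their lowest differences were -0.59 with cycloheximide 5 uM and -0.49 with blebbistatin 10 uM. Smaller differences lost their call with replicates left out: rapamycin 22 uM -0.42 (-0.35, adjusted p = 0.0705 without replicate 2) and cycloheximide 0.264 uM -0.42 (adjusted p = 0.0699 without replicate 2).

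AKR1C3 (11715711_a_at, chr10:5048781-5107686), an aldo-keto reductase that acts on steroids, prostaglandins and quinones, rose in the most groups. Its near-identical relatives AKR1C1 and AKR1C2 can share probes, so the signal may not be that of a single gene. DMSO ran from 7.71 through 7.89 to 8.17. Trichostatin A 0.143 uM gave 8.99, 9.19 and 9.04, above every DMSO array, a rise of 1.16 ± 0.09 or 2.24-fold (adjusted p = 1.76e-21). At 0.114 uM it gave 8.99, 9.05 and 9.04, a rise of 1.12 (adjusted p = 1.75e-20). The difference between these concentrations was 0.05 with a 95% interval of -0.16 to 0.25. A second AKR1C3 probe set with a mean of 4.11 gave 0.02 for trichostatin A 0.143 uM (adjusted p = 0.91).

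Among inhibitors of topoisomerases, camptothecin 0.31 uM gave AKR1C3 levels of 8.74, 8.67 and 8.80, a rise of 0.83 ± 0.09 (adjusted p = 3.21e-14). Camptothecin 0.01 uM gave 8.22, 8.35 and 8.23, a rise of 0.36 (adjusted p = 0.00377, and 0.0846 without replicate 2). Both lay above all DMSO arrays, and the higher concentration exceeded the lower by 0.47. Etoposide 0.811 uM gave 8.45, 8.32 and 8.31, a rise of 0.45 (adjusted p = 6.84e-05), and 0.812 uM differed by 0.37 (adjusted p = 0.00238, and 0.0729 without replicate 1). Doxorubicin 0.101 uM gave 8.14, 8.11 and 8.39, which overlap DMSO, with 0.30 (adjusted p = 0.0146, and 0.22 with adjusted p = 0.313 without replicate 3). H-7 was the exception: 12.4 uM gave 7.39, 7.29 and 7.67, all below DMSO, a difference of -0.46 (adjusted p = 6.78e-06), and 20.2 uM gave -0.37 (adjusted p = 0.000148), which was -0.09 after a further quantile normalization.

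**Figure D4:**
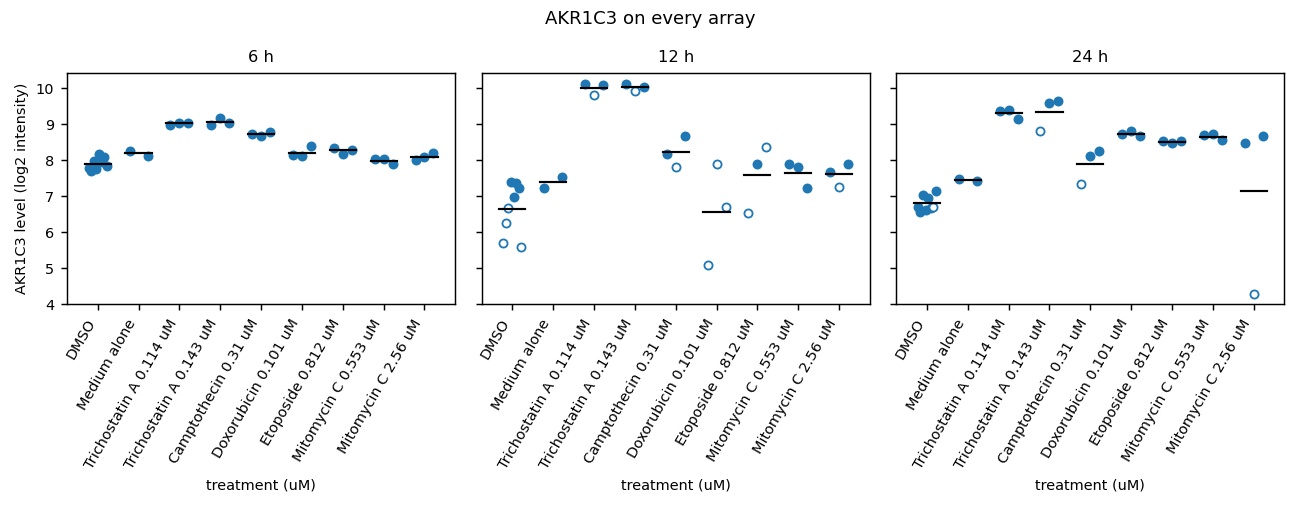
AKR1C3 level (log2 intensity, vertical axis) in each array of DMSO, medium, both trichostatin A groups and 5 groups of DNA-damaging compounds (horizontal axis) at 6, 12 and 24 h; a point is an array, an open circle a low-signal array and a line the group mean. Trichostatin A lies above every DMSO array at each time (difference 1.16 at 6 h and 2.55 at 24 h for 0.143 uM), and at 24 h mitomycin C 2.56 uM has 1 low-signal array at 4.29 beside 8.48 and 8.67.

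OSGIN1 (11744045_a_at, chr16:83953240-83966332) ran from 4.61 through 4.69 to 4.96 in DMSO. H-7 12.4 uM gave 4.90, 5.37 and 5.06, with 1 array inside the DMSO range, and a difference of 0.38 ± 0.11 (adjusted p = 0.00505). Without replicate 2 it was 0.25 (adjusted p = 0.0979).

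Compounds can be set side by side by how many of the 9 genes moved at 6 h. H-7 12.4 uM raised 5 and lowered 3, beside 15.5% and 18% of all genes, with a median of 0.31 over the 9. H-7 20.2 uM raised 3 and lowered 4, beside 23% and 27%. Trichostatin A 0.143 uM raised 3 (SRXN1, GCLC, AKR1C3) and lowered 4 (SLC7A11, TXNRD1, GCLM, NQO1), beside 22.3% and 22.4%. Camptothecin 0.31 uM raised 2 (HMOX1, AKR1C3) and lowered 6, beside 27% and 19.9%, with a median of -0.19. Cycloheximide 5 uM raised 0 and lowered 6, beside 16.5% and 16.8%, and its median of -0.75 stood against -0.03 over all genes. Monastrol 100 uM raised 2 (SLC7A11, AKR1C3) and lowered 3 (HMOX1, TXNRD1, NQO1), beside 4.61% and 2.99%. Of the monastrol calls, AKR1C3 (0.27) was lost without replicate 1, 2 or 3 or DMSO replicate 1, 2 or 4 (adjusted p up to 0.248) and HMOX1 (-0.38) without replicate 2 or 3 or DMSO replicate 2 or 3 (up to 0.185). Of the camptothecin calls, SRXN1 was lost without replicate 2 (adjusted p = 0.132) or 3 (0.14). Of these groups, cycloheximide 5 uM had calls in 1 direction only, and H-7 12.4 uM raised the most genes. With doxorubicin 0.101 uM, 1 of the 9 rose and 1 fell, beside 3.4% and 3.74% of all genes. With aclacinomycin A 0.105 uM 0 of the 9 were called, beside 0.345% and 0.428%. The difference between these anthracyclines was not tested.

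Medium alone was compared with DMSO as the background of the solvent. Of the 9 genes 6 were called, 2 higher in medium and 4 lower, beside 11.7% and 13.8% of all genes. SLC7A11 was 7.51 and 7.55 in medium, a difference of 0.57 ± 0.13 (adjusted p = 0.000309). SRXN1 was 8.75 and 8.76, a difference of -0.67 ± 0.08 (adjusted p = 4.46e-11). Both genes lay wholly outside the DMSO range. GCLC was 8.32 and 8.75, also below every DMSO array, a difference of -0.32 (adjusted p = 0.022). AKR1C3 (8.26 and 8.13) differed by 0.29, HMOX1 (6.97 and 6.75) by -0.36 and TXNRD1 (10.88 and 10.99) by -0.19, each with 1 array inside the DMSO range. GCLM, NQO1 and OSGIN1 were not called, with 95% intervals of -0.25 to 0.07, -0.24 to -0.00 and -0.27 to 0.25. With 2 arrays these values have larger errors than those of the compounds.

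Differences between concentrations were called for 5 of the 13 compounds that had 2. Of 117 pairs of a gene and a compound, 21 differed between the higher and the lower concentration at 6 h (17.9%), beside 8.51% over all genes, 6 higher and 15 lower. Rapamycin differed for SLC7A11 (2.15) and NQO1 (-0.30, adjusted p = 0.000465). Geldanamycin differed for SLC7A11 (1.25), HMOX1 (1.00, adjusted p = 3.44e-08) and SRXN1 (0.25, adjusted p = 0.0331). Cycloheximide differed for SRXN1 (-0.97), TXNRD1 (-0.66), GCLM (-0.62), HMOX1 (-0.49) and NQO1 (-0.34), while SLC7A11 was not called (-0.03, 95% interval -0.30 to 0.24). H-7 differed for 6 genes, most of all GCLC (-0.84, adjusted p = 2.96e-09). Camptothecin differed for 5: TXNRD1 (-0.72), HMOX1 (0.58), AKR1C3 (0.47), SLC7A11 (-0.42) and GCLM (-0.30). The remaining 8 compounds, trichostatin A and etoposide among them, had concentrations with 0 called pairs. For those 2 compounds the labelled concentrations are close.

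Regulators of NRF2 were read from a list of which 9 genes were measured. With trichostatin A 0.143 uM, 0 rose and 6 fell with a median of -0.34: KEAP1 fell by 2.23 ± 0.07, BACH2 by 0.86, CUL3 by 0.35 and NFE2L2 by 0.28. In the same wells SRXN1, GCLC and AKR1C3 rose while NQO1 and GCLM fell. With H-7 20.2 uM, 5 rose and 2 fell: the small MAF gene MAFG rose by 1.41 and NFE2L2 by 0.64, while KEAP1 fell by 0.63. With H-7 12.4 uM, 5 rose and 1 fell, NFE2L2 by 0.63, MAFG by 0.76 and BACH1 by 0.55 among the rises. With camptothecin 0.31 uM, 5 rose and 3 fell: BACH2 fell by 2.10, CUL3 by 0.80 and NFE2L2 by 0.35, and BACH1, KEAP1 and MAFG rose by 0.57, 0.50 and 0.55. With cycloheximide 5 uM, NFE2L2 rose by 0.32 and KEAP1 fell by 0.52, in wells in which 6 of the 9 oxidative stress genes fell. Rapamycin 22 uM raised 6 of the regulators and lowered 2. Over the 27 groups and all genes, 7.02% of differences were rises and 6.68% falls. BACH1 rose in 9 of these groups and fell in 0. NFE2L2 rose in 6 and fell in 3, and KEAP1 rose in 1 and fell in 5. These counts stand beside the shares of all genes that rose and fell: 22.3% and 22.4% with trichostatin A 0.143 uM, 23% and 27% with H-7 20.2 uM, 15.5% and 18% with H-7 12.4 uM, 27% and 19.9% with camptothecin 0.31 uM, and 13% and 13.6% with rapamycin 22 uM. Nothing particular to the regulators is read from them.

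Of 22 other measured NRF2 targets, cycloheximide 5 uM raised 1 and lowered 9, as it lowered 6 of the 9. The carbonyl reductases CBR3 and CBR1 fell by 1.30 and 0.70, and PIR by 0.96. Camptothecin 0.31 uM raised 11 and lowered 5 of the 22, rapamycin 22 uM raised 2 and lowered 8, and trichostatin A 0.143 uM raised 10 and lowered 7, with PIR among the falls at -0.99. H-7 20.2 uM raised 7 and lowered 9. Of 18 measured glutathione, thioredoxin and peroxide enzymes, rapamycin 22 uM raised 1 and lowered 10, geldanamycin 0.032 uM raised 1 and lowered 7, and cycloheximide 5 uM raised 1 and lowered 5. Camptothecin 0.31 uM raised 8 and lowered 1. Trichostatin A 0.143 uM raised 5, glutaredoxin GLRX by 1.78 among them, and lowered 8, the mitochondrial thioredoxin reductase TXNRD2 by 0.96 among them. The shares of all genes that rose and fell were 16.5% and 16.8% with cycloheximide 5 uM, 27% and 19.9% with camptothecin 0.31 uM, 13% and 13.6% with rapamycin 22 uM, 22.3% and 22.4% with trichostatin A 0.143 uM, 23% and 27% with H-7 20.2 uM, and 6.73% and 9.75% with geldanamycin 0.032 uM. The lists hold few genes, and nothing particular to them is read from these counts.

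Genes whose differences followed a member across the 27 groups at 6 h were ranked by Pearson's r, among genes called in at least 3 groups. These are descriptions over points that share the same 8 DMSO arrays. SLC7A11 was followed by PSAT1, a serine synthesis enzyme (r = 0.93), CBS, an enzyme on the route to cysteine (0.82), and FXR1 (0.79). HMOX1 was followed by MKNK2 (0.84), TRIM25 (0.82) and SLC8B1 (0.82), and TXNRD1 by WWP1 (0.88), NOTCH2 (0.87) and ANXA2P2 (0.87). SRXN1 was followed by EFCAB14 (0.90), STX2 (0.88) and CYB5R3 (0.86), and NQO1 by TRNAU1AP (0.93), JPT2 (0.89) and TMEM237 (0.89). GCLM was followed by ATL3 (0.92), TIAL1 (0.91) and CMPK1 (0.90), while GCLC was followed by ERI1 (0.95), BLZF1 (0.93) and KIN (0.93). AKR1C3 was followed by REEP6 (0.94), CFAP96 (0.94) and CCS (0.93), and OSGIN1 by GPRIN3 (0.73), DNAJC5 (0.70) and COA8 (0.68). None of the first 3 followers of any member was another member. Between members, r was highest for GCLM and NQO1 (0.66) and lowest for GCLM and AKR1C3 (-0.77). TXNRD1 and SRXN1 had r = 0.61, and 0.18 without H-7 and cycloheximide. SLC7A11 and HMOX1, both raised by geldanamycin, had r = -0.05.

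At 12 h, 13 rises (5.35%) and 9 falls (3.70%) were called among 243 differences, beside 1.17% and 1.64% over all genes and groups. Without the 31 low-signal arrays, 207 differences in 23 groups could be fitted, with 29 rises (14.0%) and 9 falls (4.35%), beside 4.68% and 4.08%. Of the 22 calls on all arrays, 16 were also called without the low-signal arrays and 8 in all 11 fits with replicates left out. The rises numbered 8 without replicate 1 and 24 without replicate 2, and the falls 16 without replicate 2. SLC7A11 with rapamycin 22 uM was 9.46, 9.46 and 9.25 against a DMSO range of 6.35 to 7.17, a rise of 2.71 ± 0.30 (adjusted p = 3.32e-10, and 2.83 without low-signal arrays). With cycloheximide 5 uM it was 4.37, 4.82 and 4.79, a fall (-2.02 ± 0.30, adjusted p = 3.34e-06; -1.98 without low-signal arrays). Neither group overlapped DMSO.

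AKR1C3 at 12 h was 10.12, 9.92 and 10.04 with trichostatin A 0.143 uM, a rise of 3.38 ± 0.46 (adjusted p = 4.63e-08), and 2.84 without low-signal arrays. SRXN1 rose by 2.12 with H-7 20.2 uM (1.83 without low-signal arrays), by 1.91 with trichostatin A 0.143 uM (1.68) and by 1.38 with rapamycin 22 uM (1.45). GCLM with H-7 20.2 uM rose by 1.40 (1.44) and GCLC with trichostatin A 0.143 uM by 1.66 (1.54), the same directions as at 6 h. NQO1 fell by 1.29 with trichostatin A 0.143 uM and by 1.14 with cycloheximide 5 uM (-1.26 and -1.08 without low-signal arrays). Without replicate 1 the adjusted p was 0.0748 for GCLM with H-7, 0.163 for GCLC with trichostatin A, 0.115 for SRXN1 with rapamycin, and 0.0605 and 0.304 for NQO1 with trichostatin A and cycloheximide. Without replicate 3 it was 0.0519 for GCLM with H-7 and 0.109 for NQO1 with cycloheximide. SLC7A11 rose by 1.41 with H-7 20.2 uM (1.46 without low-signal arrays, adjusted p = 0.00145, and 0.0624 without replicate 1). With camptothecin 0.31 uM, HMOX1 rose by 1.08 and AKR1C3 by 1.57 (0.84 and 1.19 without low-signal arrays), with adjusted p = 0.0689 and 0.0511 without replicate 1 and 0.122 and 0.142 without replicate 3. SLC7A11 with doxorubicin 0.101 uM differed by -1.15 (adjusted p = 0.0145, and 0.256 without replicate 3), and all 3 of its arrays were low-signal. Other calls rested on low-signal arrays, and with geldanamycin 0.001 uM replicate 2 was such an array. There TXNRD1, GCLM and NQO1 went from -1.06, -0.84 and -1.45 to 0.18, 0.04 and -0.09 without low-signal arrays. The OSGIN1 rise of 0.89 in that group was 0.54 without replicate 2 (adjusted p = 0.919).

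At 24 h, 16 rises (6.58%) and 10 falls (4.12%) were called, beside 2.45% and 3.34%. Without the 17 low-signal arrays, 42 rises (17.9%) and 28 falls (12.0%) were called among 234 differences, beside 8.77% and 9.45%. The 16 rises became 8 without replicate 1 and 10 without replicate 3, and 6 of the 26 calls were kept in all 11 fits. AKR1C3 gave 7 of the 16 rises, and 16 of the 42 without low-signal arrays, with 0 falls in either fit. Its DMSO level ran from 6.57 through 6.70 to 7.16. Trichostatin A 0.114 uM gave 9.37, 9.40 and 9.15, a rise of 2.51 ± 0.41 (adjusted p = 5.48e-05), and 0.143 uM gave 8.82, 9.59 and 9.65, a rise of 2.55 (adjusted p = 1.23e-05). All 6 arrays lay above every DMSO array.

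AKR1C3 also rose in several groups of DNA-damaging compounds at 24 h, though on all arrays not in every such group. Camptothecin 0.31 uM and etoposide 0.811 uM, each with a low-signal replicate 1, gave 1.10 and 1.12 on all arrays, not called. Without low-signal arrays these differences had grown by 0.53 and 1.29 from those of 6 h (adjusted p = 0.0304 and 1.12e-07, limma). Doxorubicin 0.101 uM gave AKR1C3 levels of 8.72, 8.82 and 8.68, a rise of 1.94 ± 0.41 or 3.83-fold (adjusted p = 0.000558). Mitomycin C 0.553 uM gave 8.70, 8.72 and 8.56, a rise of 1.86 (adjusted p = 0.00386, and 0.0694 without replicate 1). Etoposide 0.812 uM gave 8.54, 8.47 and 8.53, a rise of 1.71 (adjusted p = 0.00967, and 0.111 without replicate 1). None of the arrays of these doxorubicin, mitomycin C and etoposide groups was low-signal and none overlapped DMSO. Mitomycin C 2.56 uM gave 8.48, 4.29 and 8.67 with a difference of 0.35. It was 1.76 (adjusted p = 7.91e-20) without low-signal arrays, replicate 2 of this group among them. Camptothecin 0.01 uM gave a rise of 1.69 (adjusted p = 0.0127, 0.14 without replicate 1 and 0.0627 without replicate 3). Doxorubicin 0.03 uM gave a rise of 1.51 (adjusted p = 0.0417, and 1.77e-19 without low-signal arrays), lost without replicate 1 (0.32) or 3 (0.13) and without DMSO replicate 1, 2, 4, 5, 6 or 7 (adjusted p up to 0.0655).

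SLC7A11 at 24 h was high with rapamycin 22 uM, at 7.85, 8.00 and 7.53 against a DMSO range of 4.87 to 6.37. The rise was 1.83 ± 0.24 (adjusted p = 2.58e-07). Monastrol 100 uM gave 7.05, 7.40 and 7.40, also above every DMSO array, a rise of 1.32 (adjusted p = 0.00123, and 0.0675 without replicate 1). SLC7A11 fell with doxorubicin, by 1.15 at 0.03 uM and by 0.84 at 0.101 uM (adjusted p = 0.00262 and 0.0193). Without replicate 1 these had adjusted p = 0.112 and 0.33, and the second had 0.156 without replicate 2. With mitomycin C 0.553 uM it rose by 0.90 (adjusted p = 0.0396, and 0.74 without low-signal arrays), lost without replicate 1, 2 or 3 (0.721, 0.102 and 0.139) and without DMSO replicate 1, 4 or 7 (up to 0.139). With geldanamycin 0.032 uM, which had raised it 2.53-fold at 6 h, it was -0.42 from DMSO at 24 h, not called, and -0.58 without low-signal arrays (adjusted p = 0.00616).

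SRXN1 with rapamycin 22 uM had gone from below to above DMSO: at 24 h it was 10.22, 10.28 and 10.30 against 8.20 to 8.88 in DMSO, a rise of 1.67 ± 0.30 (adjusted p = 0.000181). With camptothecin 0.31 uM, HMOX1 was 7.50, 7.23 and 7.70, a rise of 1.03 (adjusted p = 0.0083, 0.107 without replicate 1 and 0.06 without replicate 3). GCLM, lower at 6 h, rose by 0.86 in those wells (adjusted p = 0.00687, and 0.0701 without replicate 3). GCLC with trichostatin A 0.143 uM was 6.11, 7.21 and 7.57, a difference of -1.24 (adjusted p = 0.0348), -0.98 (adjusted p = 2.84e-08) without low-signal arrays and -0.81 (adjusted p = 0.792) without replicate 1. The call was also lost without DMSO replicate 1, 2, 3, 4, 5 or 8 (adjusted p = 0.0505 to 0.0561). The first of these arrays lay below every DMSO array. The other 2 lay above only the lowest DMSO array, the low-signal replicate 7 at 6.99. They were below the next lowest DMSO array, at 8.26. With trichostatin A 0.114 uM the difference at 24 h was -0.08 and not called. With mitomycin C 2.56 uM 5 of the 9 were called on all arrays. These were 1 rise and 4 falls, beside 7.77% and 18.1% of all genes. Its replicate 2 was low-signal. Without low-signal arrays HMOX1 went from 1.12 to 0.21, TXNRD1 from -1.67 to -0.52 and SRXN1 from -0.86 to 0.05. GCLC went from -1.03 to -0.21 and NQO1 from -1.28 to -0.30. In that fit 1 rise, that of AKR1C3, and 2 falls were called, beside 14.2% and 15.6% of all genes. All 3 arrays of H-7 12.4 uM at 24 h were low-signal, so its 4 calls there, 1 rise and 3 falls beside 27.1% and 31.9% of all genes, have no value without them. Of the 4, 3 were lost without replicate 2.

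**Figure D5:**
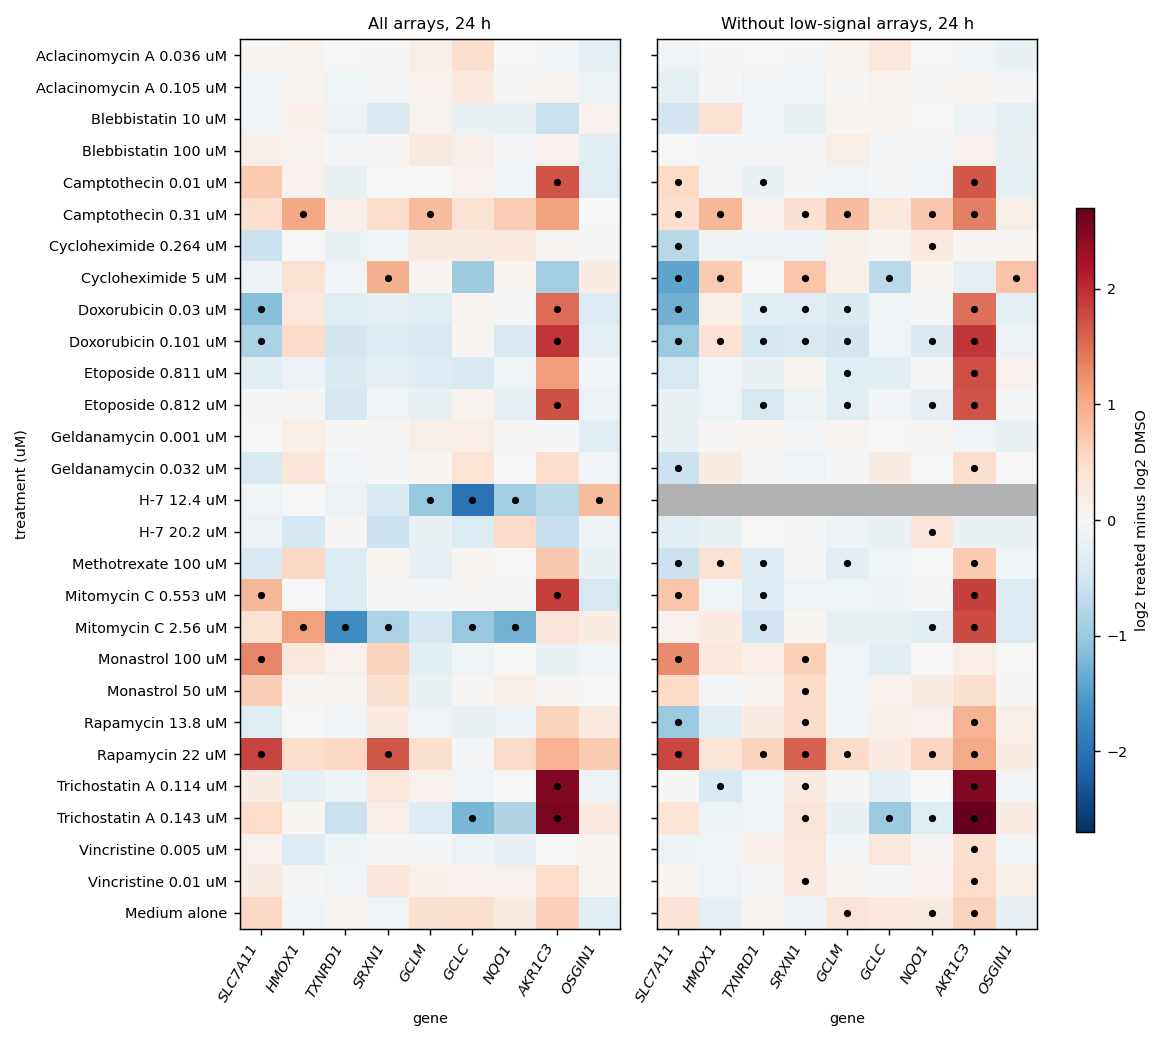
Difference from DMSO at 24 h (log2, colour) for the 9 genes (columns) in 27 treated groups and medium (rows), on all arrays (left) and without 17 low-signal arrays (right); a dot marks adjusted p under 0.05 (limma) and a grey row a group with no arrays left. AKR1C3 has 7 called rises in the left panel and 16 in the right panel, and rapamycin 22 uM keeps its rises of SLC7A11 (1.83 and 1.80) and SRXN1 (1.67 and 1.59).

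Whether a difference from DMSO changed between 6 and 24 h was tested directly in a fit of all 282 arrays. Of 243 differences 17 changed, beside 3.6% over all genes. The largest gain was SRXN1 with cycloheximide 5 uM (2.32, 24 h minus 6 h). It went from the deepest fall of the 9 genes at 6 h to a rise of 0.95 at 24 h. At 24 h 2 of the 3 treated arrays were low-signal, and the rise was 0.74 without low-signal arrays. It had adjusted p = 0.0597 and 0.116 without replicates 1 and 3. SRXN1 with rapamycin 22 uM gained 1.92, GCLM with camptothecin 0.31 uM 1.12 and SLC7A11 with trichostatin A 0.143 uM 0.99. Losses were -1.76 for SLC7A11 with geldanamycin 0.032 uM and -1.84 for GCLC with trichostatin A 0.143 uM. Without low-signal arrays the last 2 were -1.92 and -1.59. It is not stated whether all times were normalized together, so levels of a gene at different times are not set against each other here.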

How the data were processed

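The values are log2 intensities that the authors made by RMA, per the submitters' processing notes; the version, and whether all arrays were normalized together, are not given in the sources used here. Of 49386 probe sets, the platform annotation lists 46586, and 45259 have 1 gene symbol (1327 several); 45178 matched RefSeq by gene identifier and 0 symbols changed. For 11823 genes with several probe sets, that with the highest mean was used.

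The 94 arrays of a time were fitted together with limma 3.58.1 (R 4.3.3), a mean per group, and eBayes with a trend. Benjamini-Hochberg adjustment was over 18239 genes in each contrast. The change between 6 and 24 h was a contrast of differences over 282 arrays. No filter on low values was used, and the number of arrays limits the precision. The fit was tested on simulated data. Alternatives were a further quantile normalization, the mean of a gene's probe sets, a filter on the 40% dimmest genes, only the groups compared, a replicate block, and leaving out low-signal arrays or replicates.

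The 9 genes, the gene lists and the low-signal limits were chosen with earlier results of these data known. Named besides the 9 were NFE2L2, KEAP1, BACH1 and BACH2, up to 4 genes per list called in most groups at 6 h, and for each of the 9 the 3 genes with the highest correlation. Python 3.11.15 with pandas 2.3.3, numpy 2.4.6 and matplotlib 3.10.9 drew the figures.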

Additional observations from a re-analysis of the deposited data

Results flagged for a closer look

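The difference from DMSO changed between 6 and 24 h for 17 combinations of a gene and a treated group (log2, 24 h minus 6 h, limma on all arrays). Gains were 2.32 for SRXN1 with cycloheximide 5 uM (2.11 without low-signal arrays), 1.92 for SRXN1 with rapamycin 22 uM (1.85), 1.32 for HMOX1 with cycloheximide 5 uM (1.62), 1.12 for GCLM with camptothecin 0.31 uM (1.08), 0.99 for SLC7A11 with trichostatin A 0.143 uM (0.87) and 0.97 for GCLM with trichostatin A 0.114 uM (0.89). Losses were -1.84 for GCLC with trichostatin A 0.143 uM (-1.59), -1.76 for SLC7A11 with geldanamycin 0.032 uM (-1.92) and -1.07 for SRXN1 with H-7 20.2 uM (-0.53). With H-7 12.4 uM, where all 3 arrays of 24 h were low-signal and no second value exists, the losses were -0.75 for SLC7A11, -1.41 for SRXN1, -1.80 for GCLM and -1.70 for GCLC, and the NQO1 difference fell by 1.00. With mitomycin C 2.56 uM, replicate 2 of 24 h was low-signal. In that group HMOX1 gained 1.13 (0.22 without low-signal arrays, adjusted p = 0.611). TXNRD1 lost -1.57 (-0.43 without low-signal arrays, adjusted p = 0.000192) and NQO1 lost -1.32 (-0.34, adjusted p = 0.0193).

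In 7 of 54 groups of a gene at a time with 4 to 10 arrays, 1 array lay far from the others. Chance alone flags about 1 in 20 where groups are independent. The genes here share arrays and several flags fall on the same array, so these shares cannot be set against each other. With methotrexate at 12 h, replicate 2, a low-signal array, read 7.88 for SRXN1 (nearest array 8.63) and 8.14 for GCLM (nearest 8.93). With methotrexate at 24 h, an array numbered replicate 1 read 7.13 for HMOX1 (nearest 6.99), 8.17 for GCLM (nearest 8.39) and 7.94 for GCLC (nearest 8.25). In DMSO, the low-signal replicate 1 of 12 h read 6.60 for SRXN1 (nearest 7.66), and the low-signal replicate 7 of 24 h read 6.99 for GCLC (nearest 8.26).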

How the results depend on the processing

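Counts of called differences moved as follows. Without low-signal arrays, rises went from 13 to 29 at 12 h and from 16 to 42 at 24 h, falls from 10 to 28 at 24 h, and changes between times from 17 to 69. With the mean of all probe sets, medium against DMSO went from 6 to 2, falls at 12 h from 9 to 5, rises at 24 h from 16 to 25 and changes between times from 17 to 33. With only the arrays compared, falls at 24 h were 17. With replicates left out in turn, rises ran from 25 to 30 and falls from 30 to 50 at 6 h, from 8 to 24 and 7 to 16 at 12 h, and from 8 to 16 and 9 to 11 at 24 h, differences between concentrations from 17 to 23, and medium from 5 to 6. Arrays of the same replicate number deviated together no more than others (median r = -0.0003, -0.0005 and 0.0037 at 6, 12 and 24 h over 975 pairs each), so the numbers were not taken as a pairing; with a replicate block, 29 rises and 35 falls were called at 6 h, and 7 and 7 at 24 h.

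Some called differences turned in sign. At 6 h, the second AKR1C3 probe set gave -0.13 with camptothecin 0.31 uM, -0.0575 with trichostatin A 0.114 uM, -0.0575 with monastrol 100 uM, -0.0208 and -0.00083 with etoposide 0.811 and 0.812 uM, and 0.30 with H-7 20.2 uM. Other GCLC probe sets gave 0.12 with H-7 12.4 uM and 0.15 with camptothecin 0.31 uM, and GCLM -0.0075 with rapamycin 22 uM. The dim SLC7A11 probe set gave 0.0879 with camptothecin 0.31 uM, 0.16 with doxorubicin 0.101 uM, 0.11 with etoposide 0.812 uM and 0.0479 with trichostatin A 0.114 uM. Other TXNRD1 probe sets gave 0.30 and 0.29 with H-7 20.2 uM, 0.0188 with monastrol 100 uM, and 0.21 and 0.0142 with trichostatin A 0.143 uM, and the mean of all gave 0.13 and 0.0179 for H-7 20.2 uM and trichostatin A 0.143 uM. At 12 h with geldanamycin 0.001 uM, GCLM was 0.16 by the mean of probe sets and 0.0425 without low-signal arrays, and TXNRD1 was 0.18 without low-signal arrays and 0.20 without replicate 2. At 24 h with mitomycin C 2.56 uM, SRXN1 was 0.0543 without low-signal arrays and 0.11 without replicate 2. The cause was not tested. Signal over background was not measured, so genes near the array median, OSGIN1 above all, are the least certain.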
